A study of Zeugodacus cucurbitae with 52 samples.

Results

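The genes described here are the chitinases and the peritrophic matrix proteins of the melon fly, Zeugodacus cucurbitae, a fruit fly whose larvae feed inside cucurbit fruits. They were taken by name alone: every gene whose product description contains "chitin" or "peritroph" and does not contain "cuticle" or "cuticular". This gave 30 of the 18241 genes in the table, of which 16 are chitinases or chitinase-like proteins and 14 are peritrophins. No gene of the set is described as a chitin synthase or a chitin deacetylase, so the making of chitin is covered here only by the precursor pathway.

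Gene expression was measured by RNA-seq of whole bodies in 13 stages, with 4 libraries each, 52 in all, and each library is labelled as a separate biological replicate. The stages were eggs collected less than 8 h after laying (pools of 100), 1-d-old (100), 3-d-old (20) and 7-d-old larvae (10), which are successive instars, 1-d-old, 5-d-old and 9-d-old pupae (3 each), and 1-d-old, 5-d-old and 9-d-old virgin females and males (3 each). All came from 1 laboratory stock kept at 26 to 27 °C under the same light cycle, with no treatment; larvae ate an artificial diet with bitter gourd, and adults ate sucrose, yeast and honey. Values are in TPM, a measure of transcripts that corrects for the length of each gene and gives every library the same total, so levels can be set side by side between genes, and a rise in some genes lowers the share left to others.

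Chitin is a polymer of N-acetylglucosamine that stiffens the insect cuticle and also forms a mesh in the gut. The midgut secretes this mesh with proteins, the peritrophins, that bind chitin through cysteine-rich domains, and the resulting peritrophic matrix surrounds the food and separates it from the gut cells. Chitinases cut chitin. Some loosen the old cuticle when the insect moults, others act in the gut, and the imaginal disc growth factors (Idgf) are chitinase-like proteins that in Drosophila melanogaster have lost the catalytic activity and promote the growth of cultured cells. In flies the larval midgut is removed at metamorphosis and an adult midgut is built in the pupa.

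The labels were checked with marker genes. The summed TPM of genes named vitellogenin was between 5876 and 49127 in 5-d-old and 9-d-old females and at most 652 in every other library. Protamine genes reached at least 961 TPM in every adult male library and at most 0.48 TPM in every adult female library, larval serum proteins peaked in 7-d-old larvae (63491 to 83024 TPM), and opsin Rh1, an eye pigment protein, was at 1021 TPM or more from 9-d-old pupae on. Replicate 3 of the 3-d-old larvae stood apart from the other libraries of its stage in several of the genes below, and results that rest on it are given with and without it. In whole bodies, fewer cells of a type and less RNA per cell cannot be told apart.

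**Figure D1:**
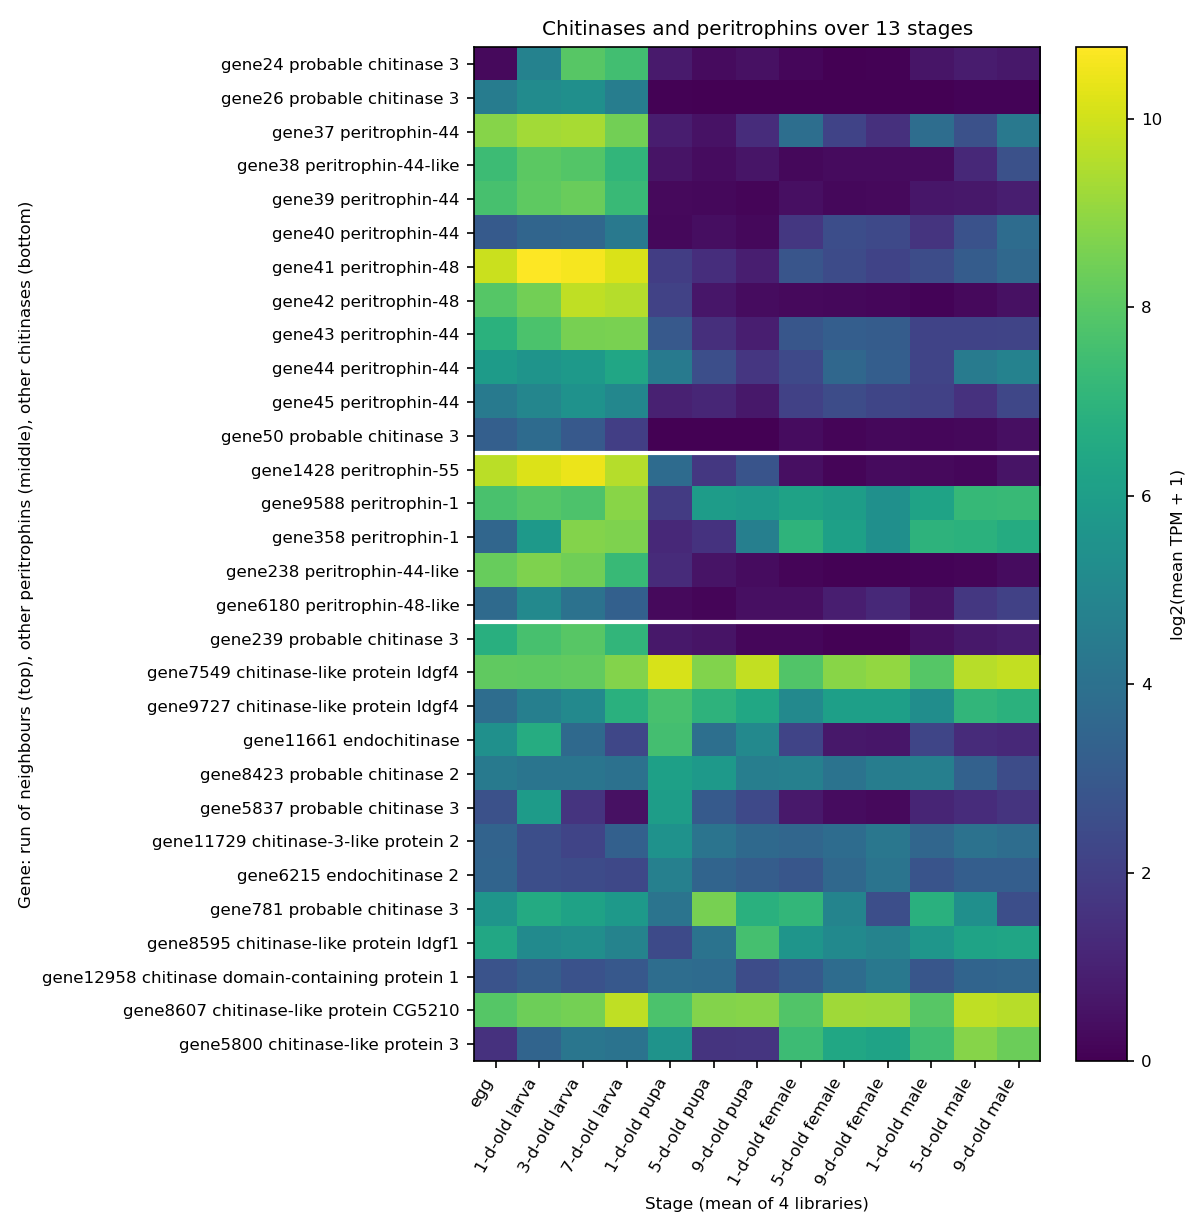
Mean level of the 30 genes (rows) in the 13 stages (columns), as the log2 of the mean TPM + 1 over 4 libraries. The top rows are 12 genes that lie in a run of neighbours, the middle rows are the other 5 peritrophins, and the bottom rows are the other 13 chitinases; the peritrophins are bright in eggs and larvae and dark in 1-d-old pupae, and most chitinases not placed in the run do not show this.

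Summed over the 14 genes, the peritrophins were highest in eggs and larvae. Their summed level was 3530 ± 138 TPM in eggs (SD, n = 4), and larvae held 5435 ± 333 at day 1, 6478 ± 677 at day 3 and 4845 ± 619 at day 7. Early pupae (1-d-old) held 54.1 ± 14.5 TPM, and in adults it ranged from 113 ± 5 (9-d-old females) to 334 ± 25 (9-d-old males). All 14 had their highest stage mean in a larval stage, which was day 1 for 4, day 3 for 6 and day 7 for 4 of them. Of all genes tested, 3.77%, 2.47% and 2.20% were highest in these stages. The chitinases together kept between 895 ± 17 TPM (1-d-old females) and 2363 ± 352 TPM (5-d-old males) in every stage. Much of this sum came from the chitinase-like genes gene7549 (Idgf4) and gene8607 (CG5210). In 1-d-old pupae these held 1092 and 212 TPM of a sum of 1966 ± 188 TPM, so the sum says little about the other chitinases. Of the 16, 7 had their highest mean in 1-d-old pupae, as did 16.4% of all genes tested.

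In eggs, all but 1 of the 14 peritrophins already had a mean of at least 10 TPM, although in 9-d-old females 12 of 14 were below that level. Genes for digestive proteases (trypsins and carboxypeptidases, 122 genes) summed to 6234 ± 533 TPM in the same egg libraries, and cuticle proteins (150 genes) to 58955 ± 4935 TPM. Both groups are better known from larvae than from eggs of this age, and the age of the eggs was not tested with these data.

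The largest change of the set lay between 7-d-old larvae and 1-d-old pupae. A gene was called changed when the adjusted p of limma was below 0.05 and the fold change on the log2(TPM + 1) scale was above 2 in size, and all 30 genes were among the 17097 tested. Of the 30, 17 were called lower and 5 higher in 1-d-old pupae, against 4.95% of all genes called lower and 12.2% called higher. The 17 comprised 13 of the 14 peritrophins and 4 chitinases, whereas the 5 higher genes were all chitinases. The median log2 fold change was −6.24 over the peritrophins, 0.86 over the chitinases and 0.67 over all genes tested. Scaling by the median of ratios moved the median of all genes to 0.03 and gave 21 lower and 2 higher, so the split between lower and higher genes depends on the scale.

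The peritrophin with the highest level was gene41, peritrophin-48. Its 4 libraries of 7-d-old larvae held 924, 1096, 1094 and 1440.3 TPM, and those of 1-d-old pupae held 2.82, 3.86, 3.23 and 1.53 TPM. Every larval library was far above every pupal one, with a ratio of the means of 398 and a log2 fold change of −8.23 (SE 0.25, limma adjusted p = 8.55e-29). Earlier in life gene41 stood at 947 ± 49 TPM (eggs), 1733 ± 161 TPM (1-d-old larvae) and 1557 ± 269 TPM (3-d-old larvae; SD, n = 4). It stayed low afterwards: adult means lay between 3.42 TPM (females at day 9) and 11.5 TPM (males at day 9).

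Peritrophin-55, gene1428, had the second highest level and was low from the early pupa on. The 7-d-old larval libraries held 689, 710.2, 740.2 and 877 TPM, and the 1-d-old pupal ones 9.39, 19.64, 17.33 and 4.39 TPM. The groups were clearly separate, and the log2 fold change was −5.96 (SE 0.29, limma adjusted p = 3.29e-22). From pupal day 1 to day 5 the mean went from 12.7 to 2.38 TPM (log2 fold change −2.01, adjusted p = 4.98e-08), but the libraries of these stages overlap, because 5-d-old replicate 1 at 5.07 TPM is above 1-d-old replicate 4. At the end of pupal life it stood higher again, at 5.97 TPM, but the change from day 5 (1.19, adjusted p = 0.00049) was below the fold threshold and the libraries overlap. It then dropped to 0.34 TPM in 1-d-old females (−2.38, adjusted p = 1.82e-09), and to 0.203 TPM in males of that age (−2.53, adjusted p = 6.44e-10). Adults had almost none of it, with stage means of 0.495 TPM or less in all 6 adult groups.

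The other peritrophins that were abundant in larvae also fell between 7-d-old larvae and 1-d-old pupae. Peritrophin-48 gene42 held 705.8, 577, 809 and 954.5 TPM in the 7-d-old larval libraries, against 2.78, 8.52, 1.24 and 0.87 TPM in the pupal ones (−7.74, SE 0.25, limma adjusted p = 4.97e-28). Peritrophin-44 gene37 went from 351 ± 49 to 0.823 ± 0.506 TPM (−7.62, SE 0.42, adjusted p = 2.73e-20). For gene39, gene38, gene238, gene43, gene40, gene45 and gene6180 the log2 fold changes ran from −7.01 to −2.99, and the libraries of both stages did not overlap for any of the 14 peritrophins. How many of all genes were without overlap at this step was not counted. The exception to the calls was gene44, also a peritrophin-44, which went from 80.7 ± 12.4 to 19.9 ± 2.1 TPM, a log2 fold change of −1.96 (SE 0.22, adjusted p = 8.44e-11) that lies just inside the fold threshold. With median-of-ratios scaling gene44 was at −3.35 and was called lower.

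Both genes named peritrophin-1 had the highest adult levels of the 14, with means over the adult stages of 95.2 TPM (gene358) and 91.0 TPM (gene9588). They were not alone in returning. Peritrophin-44 gene40, a gene of lower level, had 12.8 TPM in 9-d-old males, second only to 19.6 TPM in 7-d-old larvae. For gene358 the egg libraries held 9.82, 13.04, 11.36 and 8.88 TPM. The larval libraries held 49.5, 52.88, 43.27 and 70.87 TPM at day 1, and 413, 552, 345 and 400.4 TPM at day 3. Each stage was above the one before with no overlap, and the log2 fold changes were 2.22 (SE 0.30, limma adjusted p = 2.12e-08) and 2.96 (SE 0.30, adjusted p = 9.42e-11). Its mean fell from 404 ± 70 TPM at larval day 7 to 1.34 ± 1.64 at pupal day 1 (−7.66, SE 0.30, adjusted p = 4.43e-25). Between pupal days 5 and 9 it rose from 1.98 to 23.9 TPM (3.12, adjusted p = 5.75e-12), and newly emerged adults had more again, with 128 ± 17 TPM in females (2.46, adjusted p = 3.09e-09) and 122 ± 31 TPM in males (2.36, adjusted p = 1.27e-08).

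The other peritrophin-1, gene9588, came back earlier. It was at 462 ± 54 TPM at larval day 7, and its pupal libraries of day 1 held 2.36, 5.41, 1.54 and 1.15 TPM (−7.13, SE 0.20, limma adjusted p = 5.06e-30). In 5-d-old pupae its libraries already held 61.53, 53.21, 58.81 and 70.81 TPM (4.23, SE 0.20, adjusted p = 6.23e-22). The low level was thus seen in 1 stage of 13. In 5-d-old and 9-d-old males it was at 146 ± 12 and 149 ± 18 TPM, and these 2 genes held most of the peritrophin level of adults.

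**Figure D2:**
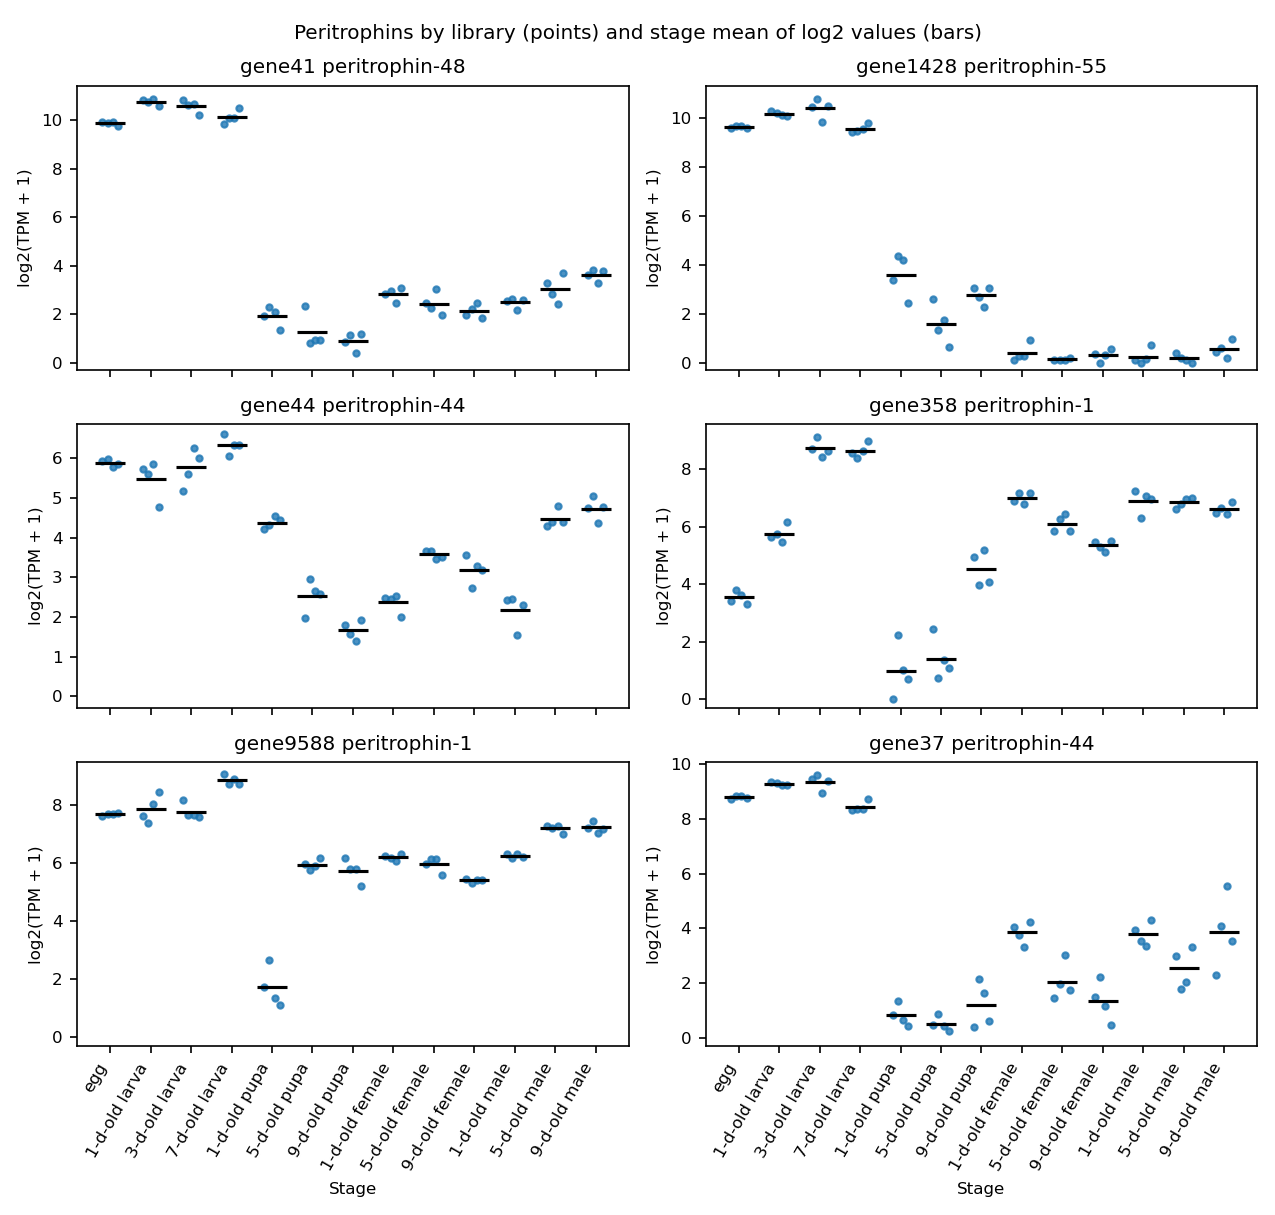
Level of 6 peritrophins in every library (points, log2(TPM + 1)) over the 13 stages, with bars at the stage mean of the 4 log2 values. All 6 are high in larvae and lower in 1-d-old pupae; gene358 and gene9588 return to means of 40.1 to 149 TPM in adults, and gene1428 does not return.

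Among the chitinases, 4 genes described as probable chitinase 3 had the course of the larval peritrophins. The clearest change was in gene24, whose egg libraries held 0.21, 0.23, 0.12 and 0.25 TPM, those of 1-d-old larvae 15.71, 20.1, 38.41 and 30.83 TPM, and those of 3-d-old larvae 281, 183, 284 and 240.4 TPM. The 3 stages did not overlap, and the log2 fold changes were 4.42 (SE 0.23, limma adjusted p = 1.24e-20) from egg to 1-d-old larva and 3.24 (SE 0.23, adjusted p = 3.03e-15) from there to day 3. In 1-d-old pupae gene24 was at 0.695 ± 0.644 TPM, down from 181 ± 14 (−6.82, adjusted p = 1.23e-27). With gene239, which went from 136 ± 17 to 0.633 ± 0.284 TPM (−6.40, adjusted p = 6.36e-34), and gene26, which went from 22.7 ± 5.1 to 0.045 ± 0.090 TPM (−4.48, adjusted p = 5.80e-31), it makes up 3 of the 4 lower chitinases. The remaining gene of this course, gene50, stood at 12.5 TPM in 1-d-old larvae and 2.96 TPM in 7-d-old larvae, was listed at 0 in all 12 pupal libraries, and did not pass the fold threshold. With median-of-ratios scaling gene50 was at −2.67 and was called lower.

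Many of these genes are neighbours. In the order of genes in the RefSeq annotation of assembly idZeuCucr1.2, 9 peritrophins (gene37 to gene45) and 3 of the probable chitinase 3 genes (gene24, gene26 and gene50) lie within 31 consecutive genes of 1 chromosome, 27 of which are in the table. In 1-d-old pupae against 7-d-old larvae, 10 of the 12 were called lower and none higher (median log2 fold change −6.08), while of the 15 other genes tested in the run 3 were called lower and 4 higher (median 0.87). The 3 lower ones are the uncharacterized gene25 (−6.75), gene32 (−3.69) and gene49 (−2.20). Genes lying between the peritrophins and the chitinases therefore moved in both directions. As a description over the 13 stage means, the 66 pairs among the 12 genes had a median Pearson r of 0.92 (0.60 to 1.00). The 60 pairs with the peritrophins not placed in the run had a median of 0.80 (0.27 to 0.99). The 156 pairs with the chitinases not placed there had a median of −0.18 (−0.80 to 1.00), so some of these pairs were as alike as pairs within the run. All of these points share the same libraries. RefSeq order was found for 22 of the 30 genes, and genes without it, such as gene238 and gene239, count as not placed. The genes gene42 and gene43 overlap in that annotation, and the library kit did not keep strand, so reads of the shared stretch cannot be told apart, and reads of such similar copies may be divided unevenly between them.

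**Figure D3:**
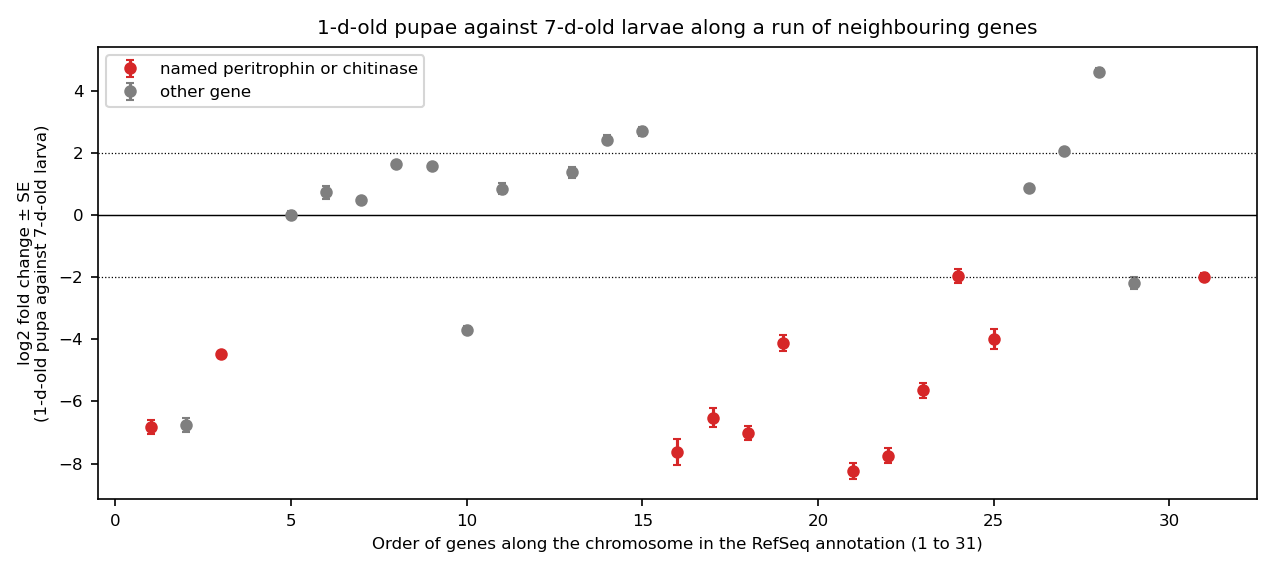
Log2 fold change (± SE, limma) of 1-d-old pupae against 7-d-old larvae for the 27 tested genes of the run, in chromosome order. Red points are the 12 peritrophins and chitinases, all below 0, grey points are the 15 other genes, and the dotted lines mark the fold threshold of 2.

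The genes most like gene1428 over the 13 stage means were gene165 (skin secretory protein xP2, r = 0.99), gene1429 (vegetative cell wall protein gp1, 0.99), gene5395 (TsetseEP-like, 0.99), gene9832 (N66 matrix protein-like, 0.98) and the peritrophin gene238 (0.98). Of these, gene1429 is next to gene1428 in the RefSeq order. The genes most like gene41 were gene39, gene8858 (molybdenum cofactor sulfurase-like), gene38, gene239 and gene26, each with an r that rounds to 0.99, and 4 of these 5 are themselves peritrophins or chitinases. Only genes with an informative description were ranked, and the values describe likeness of the stage profile alone.

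A second group of chitinases was high on the first day of the larva and of the pupa. The endochitinase gene11661 held 2.98, 6.41, 3.28 and 3.06 TPM in the 7-d-old larval libraries, whereas the 1-d-old pupal ones held 182, 175, 192 and 201 TPM. No library of one stage came near the other, and the log2 fold change was 5.30 (SE 0.36, limma adjusted p = 2.74e-17). By day 5 the pupae were at 14.2 ± 1.9 TPM (−3.63, adjusted p = 6.16e-12), and a smaller second level of 32.4 ± 7.8 TPM at day 9 was followed by 3.60 TPM in the youngest females (−2.84, adjusted p = 6.13e-09) and 3.82 TPM in males of the same age (−2.78, adjusted p = 1.61e-08). It was also high in 1-d-old larvae, at 99.3 ± 14.9 TPM, which is 2.38 times its mean in eggs.

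The probable chitinase 3 gene5837 had a similar profile (r = 0.90 with gene11661 over the 13 stage means). That is the highest r of the 78 pairs among the chitinases not placed in the run of neighbours. Its egg libraries held 5.85, 3.87, 6.23 and 5.59 TPM, and those of 1-d-old larvae 72.89, 82.93, 55.26 and 26.64 TPM (3.14, SE 0.23, limma adjusted p = 1.27e-15). With gene24 and gene358 it was 1 of the 3 genes of the set called higher at this step, where 2.64% of all genes were, and none was called lower (4.45% of all genes). It stood at 0.412 ± 0.090 TPM at larval day 7 and at 63.0 ± 8.5 TPM at pupal day 1 (5.49, SE 0.23, adjusted p = 4.02e-24), before it declined to 7.22 TPM at day 5 (−2.96, adjusted p = 6.30e-15). These 2 genes thus shared 2 high stages, the 1-d-old larva and the 1-d-old pupa. From pupal day 5 to day 9 they differed, with a ratio of the means of 2.28 for gene11661 and 0.57 for gene5837.

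Between 1-d-old and 3-d-old larvae both fell, and they were the 2 genes of the set called lower, while gene24 and gene358 were the 2 called higher (2.29% and 0.942% of all genes). The libraries of 3-d-old larvae held 8.87, 2.11, 34.26 and 1.98 TPM for gene11661 and 1.15, 1.19, 4.44 and 1.5 TPM for gene5837. Replicate 3 is the highest in both, nearest to the 1-d-old larvae, and without it the log2 fold changes went from −3.72 (SE 0.36) to −4.46 and from −4.30 (SE 0.23) to −4.61. The rises of gene24 and gene358 were 3.17 and 3.06 without this replicate. Between 3-d-old and 7-d-old larvae no gene of the set was called (1.36% of all genes were called higher and 1.88% lower), although 16 of 30 had a limma adjusted p below 0.05 and 18 an unadjusted p below 0.05. How many of all genes passed these p-values without the fold threshold was not counted. The change nearest the fold threshold was that of gene9727, an Idgf4, from 32.9 to 112 TPM (1.73, limma adjusted p = 1.24e-10).

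Of the 5 chitinases called higher at pupal day 1, the other 3 rose less. The endochitinase 2 gene6215 went from 4.00 ± 1.32 to 24.7 ± 1.0 TPM (2.39, SE 0.16, limma adjusted p = 1.73e-17). The chitinase-3-like protein 2 gene11729 went from 8.89 to 43.2 TPM (2.19), and the probable chitinase 2 gene8423 from 15.3 to 68.1 TPM. For each of the 3 the libraries of both stages did not overlap, but none of the 3 calls held when libraries were scaled by the median of ratios, which gave 1.13 for gene6215, 0.84 for gene11729 and 0.72 for gene8423.

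From 1-d-old to 5-d-old pupae another chitinase had the largest rise of the set. The probable chitinase 3 gene781 held 23.32, 10.35, 8.17 and 24.11 TPM in its libraries of pupal day 1, and 370, 390.1, 334 and 399 TPM in those of pupal day 5 (4.56, SE 0.28, limma adjusted p = 2.96e-18). Every 5-d-old library was above every 1-d-old one. It and gene9588 were the 2 genes of the set called higher in this step, and gene5800, gene11661, gene5837 and gene1428 the 4 called lower (7.17% and 4.98% of all genes). Females declined with age in gene781, from 138 ± 13 TPM on day 1 to 27.6 ± 6.3 on day 5 (−2.31, adjusted p = 1.48e-09) and 5.07 ± 1.87 on day 9 (−2.27, adjusted p = 4.70e-09). Males went from 114 ± 9 to 40.3 ± 10.4 and 5.04 ± 2.62 TPM at these ages, and the last step was called (−2.84, adjusted p = 5.96e-10). It was the gene of the set called lower in both female steps, where 1.04% and 0.62% of all genes were, and in the last male step, where 0.269% were; none was called higher in these 3 steps (6.77%, 0.146% and 0.0526% of all genes).

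The Idgf1 gene8595 was lowest at pupal day 1, at 3.57, 2.67, 5.83 and 5.18 TPM, against 27.2, 28.41, 26.23 and 25.72 TPM at larval day 7 (−2.43, SE 0.19, limma adjusted p = 1.74e-15). From pupal day 5 to day 9 its mean went from 16.3 ± 3.1 to 191 ± 22 TPM (3.48, SE 0.19, adjusted p = 5.43e-20), its highest stage. With gene358 it was 1 of 2 genes of the set called higher in this step (4.22% of all genes), and none was called lower (2.84%). Replicate 2 of the 5-d-old pupae and all 9-d-old pupal libraries except replicate 2 had a low mapped share (under 70% of reads). All results for 9-d-old pupae rest on these libraries.

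**Figure D4:**
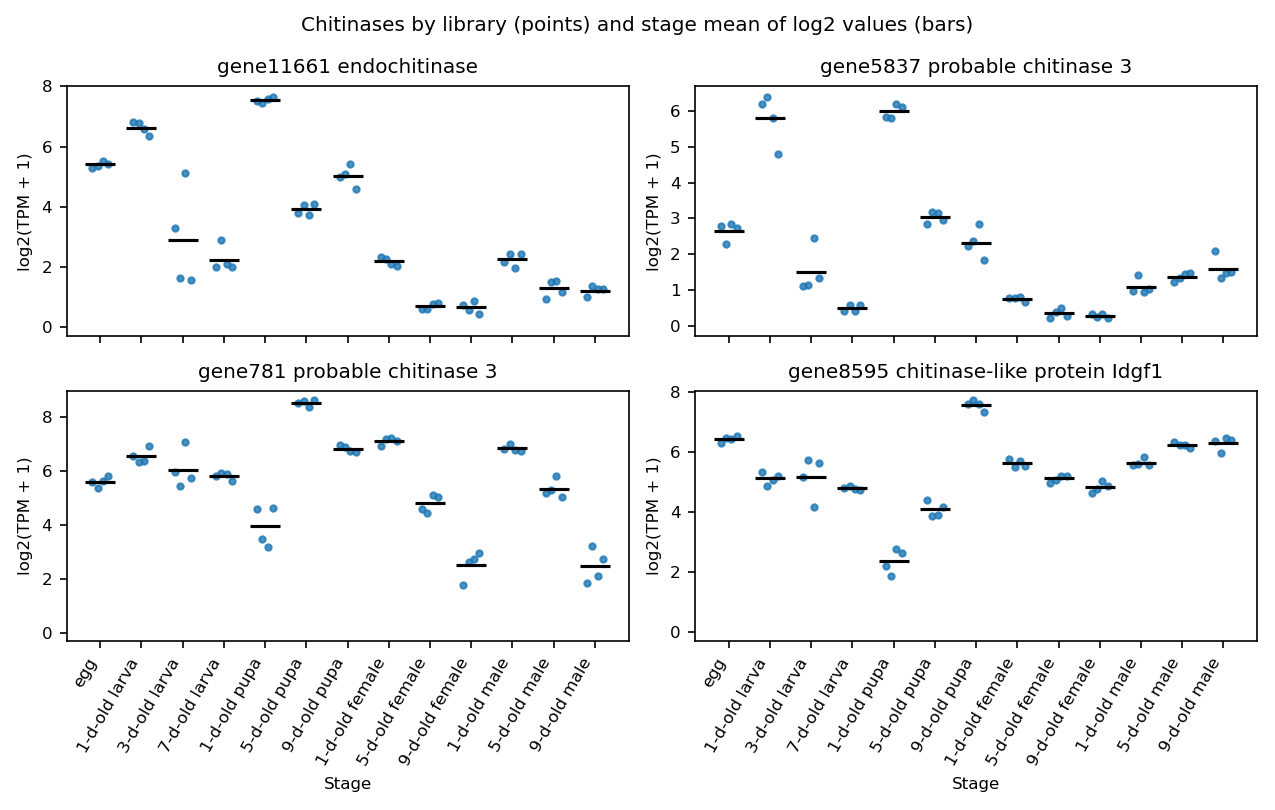
Level of 4 chitinases in every library (points, log2(TPM + 1)) over the 13 stages, with bars at the stage mean of the 4 log2 values. The endochitinase gene11661 and gene5837 have high points in 1-d-old larvae and 1-d-old pupae, gene781 in 5-d-old pupae and gene8595 in 9-d-old pupae.

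The other chitinase-like proteins were present throughout. The Idgf4 gene7549 had stage means between 231 TPM (1-d-old females) and 1092 TPM (1-d-old pupae), the CG5210 gene8607 between 212 TPM (1-d-old pupae) and 849 TPM (5-d-old males), and the other Idgf4, gene9727, between 13.5 TPM (eggs) and 195 TPM (1-d-old pupae). None of the 3 was called in any of the 15 comparisons. At pupal day 1, gene7549 was above its mean of 438 TPM at larval day 7 (limma adjusted p = 4.57e-10) and gene8607 was below its mean of 840.2 TPM (−1.99, SE 0.10, adjusted p = 1.14e-21), both below the fold threshold. Both depend on the scale. Median-of-ratios scaling gave −0.13 (limma adjusted p = 0.587) for gene7549 and −3.42 for gene8607, which was then called lower. The chitinase domain-containing protein 1, gene12958, stayed between 4.66 TPM (9-d-old pupae) and 18.9 TPM (9-d-old females).

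The chitinase-like protein 3, gene5800, was the gene of the set with the largest change from pupa to adult. The libraries of 9-d-old pupae held 2.58, 1.95, 2.27 and 1.79 TPM, those of females at day 1 held 169, 194, 145 and 151 TPM, and those of males at day 1 held 176, 209, 162 and 162 TPM. All adult libraries were far above all pupal ones, with log2 fold changes of 5.72 (SE 0.23, limma adjusted p = 2.57e-24) in females and 5.82 (SE 0.23, adjusted p = 1.14e-24) in males. Both comparisons use the same 9-d-old pupae. Earlier, between pupal days 1 and 5, it had fallen from 44.7 ± 9.5 to 2.04 ± 0.65 TPM (−3.91, adjusted p = 3.67e-19). In each sex 3 genes of the set were called higher in 1-d-old adults (gene5800, gene358 and gene37) and 2 lower (gene11661 and gene1428), where 2.66% of all genes were called higher in each and 6.14% (females) and 2.42% (males) lower. Among the higher ones, gene37 went from 1.60 ± 1.46 TPM to 13.8 ± 3.9 in females (2.65) and 13.3 ± 4.4 in males (2.59). Without the libraries of low mapped share, these values were 1.71 and 1.65 and no longer passed the fold threshold. Only 1 library of 9-d-old pupae, replicate 2, is left in that fit, so the spread comes from the other stages and the lone library is assumed to vary like them.

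In adults gene5800 went separate ways in the sexes. On day 1 no gene of the set was called between females and males (0.117% of all genes were called higher in females and 4.52% lower), with 0 genes at a limma adjusted p below 0.05 and 2 at an unadjusted p below 0.05. The share of all genes at these p-values alone was not counted. On day 5 the libraries of gene5800 held 61.57, 80.98, 92.79 and 103 TPM in females and 440.4, 469, 426 and 441 TPM in males. Each male library was above every female one, the log2 fold change of females against males was −2.40 (SE 0.23, limma adjusted p = 1.58e-12), and this was the single gene of the set called on day 5, where 5.85% of all genes were called lower in females and 4.84% higher. The test of the difference between the changes from day 1 to day 5 gave −2.30 (SE 0.32, adjusted p = 6.80e-08), and it was the 1 gene of the set called in that test, where 1.41% of all genes were called in this direction and 5.75% in the other. The genes with profiles most like it were gene7609 (sialin, r = 0.95), gene12109 (peroxisomal acyl-coenzyme A oxidase 1, 0.93), gene1825 (UTP-glucose-1-phosphate uridylyltransferase, 0.93), gene10287 (trehalose-phosphate synthase, 0.93) and gene12180 (succinate-semialdehyde dehydrogenase-like, 0.93), over 13 stage means.

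On day 9, 3 genes of the set were called lower and 1 higher in females than in males, against 6.81% and 10.1% of all genes. For gene5800 the female libraries held 81.39, 75.84, 96.5 and 46.39 TPM and the male ones 342, 369, 392 and 190.4 TPM (−2.09, SE 0.23, limma adjusted p = 4.84e-11). The sexes did not overlap, although male replicate 4, a library of low mapped share, was well below the other 3. The fold fell just below the threshold without female replicate 4 (−1.88) or male replicate 3 (−1.98). Peritrophin-44 gene37 held 1.85, 3.71, 1.25 and 0.38 TPM in females and 3.97, 15.88, 46.23 and 10.72 TPM in males (−2.53, SE 0.42, adjusted p = 7.99e-07), and gene38 went the same way (−2.07, adjusted p = 5.77e-08). Replicate 3 of the males is the highest in both genes, and without it none of the 3 genes was called lower (gene37: −1.97). The difference between the changes from day 5 to day 9 was −2.05 for gene37 (SE 0.59, adjusted p = 0.0066), the 1 gene of the set called in that test, against 0.421% of all genes in this direction and 0.175% in the other. This call was lost without any 1 of 7 libraries: 9-d-old male replicate 3 (−1.48) or 2 (−1.98), 5-d-old male replicate 2 (−1.80) or 3 (−1.88), 9-d-old female replicate 3 (−1.99) or 4 (−1.75), or 5-d-old female replicate 3 (−1.72).

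The gene called higher in 9-d-old females was the probable chitinase 2 gene8423, with 23.97, 23.61, 21.17 and 21.83 TPM against 3.13, 5.44, 4.14 and 5.91 TPM in males (2.09, SE 0.15, limma adjusted p = 1.28e-16). The sexes lay far apart, but the fold fell below the threshold without male replicate 1 (1.95) and under median-of-ratios scaling (1.35). Males aged 5 days had more peritrophin-44 gene44 than males aged 1 day, at 18.58, 19.95, 26.87 and 19.89 TPM against 4.35, 4.49, 1.91 and 3.92 TPM (2.29, SE 0.22, adjusted p = 1.73e-11), the 1 gene of the set called in that step, where 1.87% of all genes were called higher and 0.708% lower. That step, like those from egg to 1-d-old larva and from 1-d-old to 5-d-old females, joins stages whose reads differed in mean length after trimming, so trimmed read length and stage cannot be told apart there.

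**Figure D5:**
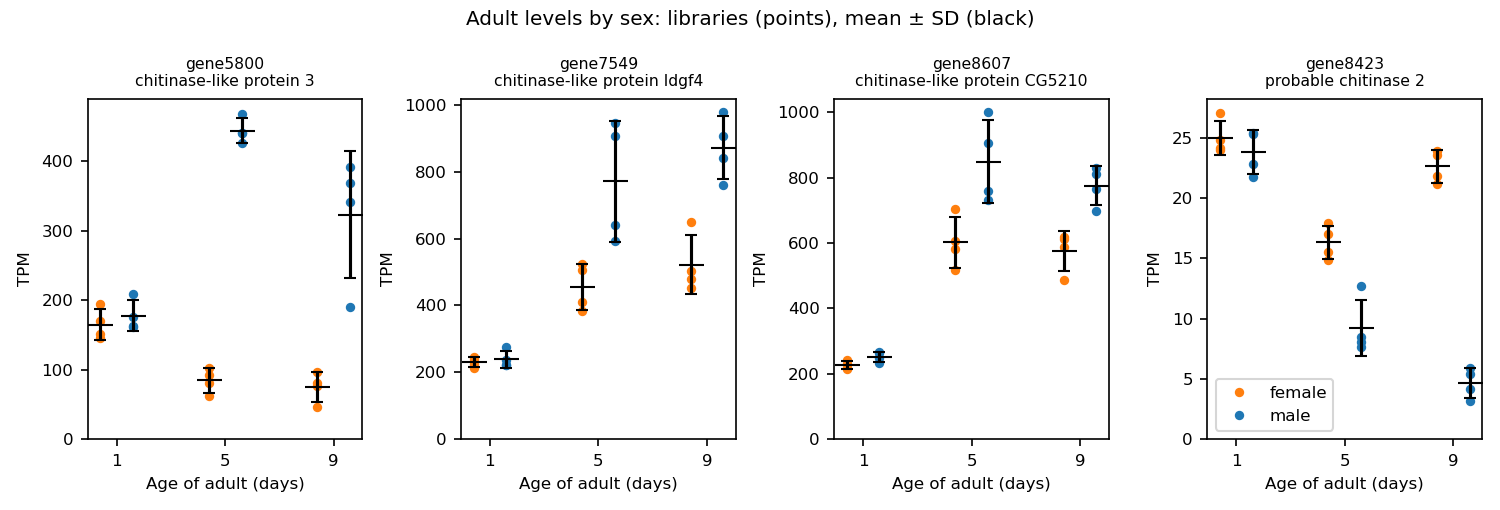
TPM of 4 chitinases in females (orange) and males (blue) aged 1, 5 and 9 days; points are libraries and black marks the mean ± SD of 4. The sexes overlap on day 1, and on day 5 and day 9 the male points lie above the female points for gene5800, gene7549 and gene8607 and below them for gene8423.

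Genes of neighbouring pathways were taken by name as well. Of 8 genes for the further breakdown of chitin fragments, 4 were called higher and 1 lower in 1-d-old pupae against 7-d-old larvae, a step in which 12.2% of all genes were called higher and 4.95% lower. They include gene4271, a chitooligosaccharidolytic beta-N-acetylglucosaminidase, an enzyme that splits the fragments left by chitinases, which went from 9.14 to 205 TPM (4.34, SE 0.28, limma adjusted p = 4.42e-18), and gene9907, an alpha-N-acetylglucosaminidase that in mammals degrades heparan sulfate rather than chitin, which went from 0.25 to 68.1 TPM (5.81, SE 0.16, adjusted p = 2.73e-30). The lower one was gene3600 (−2.91). Like gene11661 and gene5837, gene4271 had also fallen from 1-d-old to 3-d-old larvae, from 46.9 to 8.24 TPM (−2.53, adjusted p = 5.75e-10).

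Of 13 genes of the chitin precursor pathway, which makes UDP-N-acetylglucosamine from trehalose, 1 was called higher and none lower at the same step, a count near these shares of all genes. The highest by stage mean were gene9413 (trehalase) and gene7057 (glucose-6-phosphate isomerase), which had values of 1.06 and −1.88 and were not called. The glutamine-fructose-6-phosphate aminotransferase 1 gene9199, of the enzyme that opens the hexosamine branch, was singled out after its values were seen. Between pupal days 1 and 5 it went from 40.5 to 237 TPM (2.52, SE 0.14, limma adjusted p = 2.94e-19), then to 26.6 TPM by day 9 (−3.11, adjusted p = 4.01e-22), and to 149 TPM in the youngest females (2.44, adjusted p = 3.33e-18). Its paralog gene9293 moved the opposite way between 1-d-old and 5-d-old pupae, from 148 to 25.7 TPM (−2.47, adjusted p = 7.56e-26).

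Digestive proteases and mucins, taken by name, were set beside the peritrophins. Whether these genes are expressed in the gut was not tested. In 1-d-old pupae against 7-d-old larvae, 45 of 122 digestive proteases were called lower and 6 higher (median −0.28), and of 55 genes named mucin 6 were called lower and 14 higher (median 1.03), beside 4.95% of all genes lower and 12.2% higher (median 0.67). The proteases summed to 13234 ± 2529 TPM at larval day 7, 1840 ± 50 TPM at pupal day 1 and 6094 ± 520 to 10841 ± 520 TPM in the 6 adult groups. Over the same stages the peritrophins went from 4845 to 54.1 TPM, and adults held 113 to 334 TPM. Genes named mucin went the other way, from 526 ± 90 TPM at larval day 7 to 3198 ± 270 TPM at pupal day 1. Cuticle proteins had 61 of 150 genes called lower and 4 higher at the same step, and 48 higher and 8 lower from 1-d-old to 5-d-old pupae (7.17% and 4.98% of all genes), the step in which gene781 and gene9199 rose.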

How the data were processed

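The deposited table held TPM of 18241 genes in 52 libraries. The authors cleaned the reads (SeqPrep, Sickle), mapped them by HISAT2 (2.1.0), assembled further genes with StringTie and estimated TPM with RSEM (1.3.1); the genome build is not given in the sources used here. Poly(A) RNA was sequenced with a kit that does not mark strand. Each column summed to 999999 to 1000001, so depth is not in the table, and a low value has no counting interval. A gene was kept if 4 or more libraries had over 0.1 TPM (17097), and log2(TPM + 1) was fitted with limma 3.58.1 (R 4.3.3; trend and robust) in 1 model over the 52 libraries with 1 mean per stage; the fold of low genes is understated on this scale. P-values were adjusted by the Benjamini-Hochberg method over all genes tested, in 15 comparisons of stages and 2 differences between sexes, and a call needed an adjusted p below 0.05 and a log2 fold change above 2 in size. No count test was possible with TPM.

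Named were gene1428, gene41 and gene5800, the 5 members of highest stage mean in each role, and in each comparison up to 3 rising and 3 falling called genes with no overlap between libraries and at least 10 TPM in the higher stage, with the 2 highest genes of each other list; other genes were chosen after their values were seen. The members and lists were chosen with earlier results of these data known. Alternatives were a pseudocount of 0.1, no filter, median-of-ratios scaling, a threshold of 1, the compared stages alone, a replicate block, leaving out each replicate or the 6 libraries of low mapped share, and, chosen after seeing the data, 7-d-old larvae of 1 class of mean read length after trimming. The fit was tested on simulated data. RefSeq (idZeuCucr1.2) matched 22 of the 30 genes by symbol and gave gene order only; no sequences were used here.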

Additional observations from a re-analysis of the deposited data

Results flagged for a closer look

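Among 141 groups of 4 libraries tested for a single library apart from the others, 7 held one; chance alone gives about that share. In 7-d-old larvae, replicate 4 was high for gene7549 (485.8 TPM, others 419 to 428) and gene37 (425 TPM, others 321 to 329). In 3-d-old larvae, replicate 3 was low for gene239 (180.3 TPM, others 269 to 282), replicate 2 was low for gene42 (722.5 TPM, others 874 to 893), and replicate 1 was high for gene9588 (284 TPM, others 190.0 to 198). Replicate 3 of the 1-d-old males was high for gene8595 (56.8 TPM, others 46.3 to 47.4), and replicate 3 of the 5-d-old males was high for gene44 (26.9 TPM, others 18.6 to 19.9).

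The sexes differed in the change with age of 2 genes, by a test of the difference itself (limma, female change minus male change). For gene5800 the change from day 1 to day 5 differed by −2.30 (adjusted p = 6.80e-08), and for gene37 the change from day 5 to day 9 differed by −2.05 (adjusted p = 0.0066), a call lost without any 1 of 7 libraries (−1.48 without 9-d-old male replicate 3, whose 46.2 TPM is the highest of its group).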

How the results depend on the processing

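None of the rising and falling called genes named in each comparison, and neither sex difference in the change with age, reversed under any alternative. Changes that were not called were not followed in this way. Between larval day 7 and pupal day 1, gene7549 rose in the main fit but was at −0.13 with median-of-ratios scaling. With a pseudocount of 0.1, the genes called higher in the youngest adults against 9-d-old pupae were 7 in each sex, those lower in 5-d-old against 1-d-old females 3, those higher in 5-d-old against 1-d-old males 3, and those lower in females than males 4 on day 5 and 6 on day 9. With median-of-ratios scaling, 2 were higher in 1-d-old pupae than 7-d-old larvae, 5 higher in 1-d-old females than 9-d-old pupae, 2 lower in 5-d-old than 1-d-old females, and on day 9 females had 0 higher and 7 lower. With a fold threshold of 1, the counts higher and lower were 6 and 1 (1-d-old larvae against eggs), 4 and 3 (7-d-old against 3-d-old larvae), 4 and 10 (5-d-old against 1-d-old pupae), 5 and 3 (9-d-old against 5-d-old pupae), 7 and 6 in each sex (1-d-old adults against 9-d-old pupae), 2 and 3 (5-d-old against 1-d-old females), 7 and 3 (5-d-old against 1-d-old males), 2 and 5 (females against males on day 5), 3 higher in 9-d-old than 5-d-old males and 10 lower in females on day 9. At that threshold the sexes differed in the change from day 1 to day 5 for 4 genes (lower), and from day 5 to day 9 for 1 (higher) and 3 (lower). Leaving out 1 library, the count higher in 1-d-old females against 9-d-old pupae ranged from 3 to 5 (5 without 9-d-old pupa replicate 2 or 4), that lower in 5-d-old females from 1 to 2 (2 without 5-d-old female replicate 3), and on day 9 those higher in females from 0 to 1 and lower from 0 to 3. The sex difference in the change from day 5 to day 9 was called for 0 to 1 genes. Shares of all genes called were taken at the main settings only, so the counts under these alternatives have no such share beside them.

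A fit with the replicate number as a block left the counts the same or close, such as 17 lower and 5 higher in 1-d-old pupae. Same-numbered libraries did not deviate together (r from −0.30 to 0.22 over the 15 comparisons, in none over 0.1 for every pair), so the numbers were not taken as pairs; between 7-d-old larvae and 1-d-old pupae each of the 4 correlated best with its own number, at r of 0.04 or less. The fit without the filter, on the compared stages alone and with 7-d-old larvae of 1 class of trimmed read length left the counts the same or close. In these fits, none of the rising and falling called genes named in each comparison lost its call. TPM hold no depth, so how far low values are limited by counting is unknown.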
